A study of Mus musculus with 2 samples.

Results

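The microRNA (miRNA) genes described here lie inside Sfmbt2, a mouse gene on chromosome 2 that encodes a Polycomb group protein. They were chosen as every miRNA gene of the mouse GENCODE M21 annotation that lies wholly inside Sfmbt2 and on its strand, which gives 119 genes. Of these, 107 had an entry in the deposited count tables, which hold 1973 miRNA genes in all. Small RNAs under 30 nucleotides were sequenced by microRNA-seq from total RNA of newborn B6NCrl mouse hindbrain, at postnatal day 0. The 1 group held 2 libraries, 1 per pup and each made from 1 hindbrain, of pup 1 (replicate 1) and pup 3 (replicate 2). Both pups carry the same donor identifier in the labels, and their sex was not recorded. There was no second condition, so every comparison below is between members of the cluster, between the pups or with other miRNA genes.

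A miRNA is cut from a hairpin precursor and guides silencing of messenger RNAs that pair with its seed, the bases from position 2 to position 8. The cluster within Sfmbt2 is known from rodents and consists of many related copies of the Mir297, Mir466, Mir467 and Mir669 families, rich in repeats of T and G. In the mouse, Sfmbt2 is imprinted and expressed from the paternal allele in extra-embryonic tissues, and the miRNA cluster is known for its part in growth of the placenta. Individual miRNAs of these families have been studied in other settings. Examples are miR-467 with thrombospondin 1 as a target, miR-669a with MyoD, miR-466l with interleukin 10 in macrophages and miR-466h in apoptosis of cultured cells.

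Mature sequences are shown for 5 of the 8 genes of the same families outside Sfmbt2 that had one, as examples of letters shared with the cluster. They come from RefSeq (GRCm38.p6), run 5′ to 3′, and have the seed in capitals.
mmu-miR-466k: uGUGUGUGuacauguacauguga
mmu-miR-466j: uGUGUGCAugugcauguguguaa
mmu-miR-466q: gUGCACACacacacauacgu
mmu-miR-467h: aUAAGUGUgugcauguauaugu
mmu-miR-669n: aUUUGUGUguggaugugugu
They lie at chr3:85467396-85467418, chr10:60960802-60960824, chr3:28419988-28420007, chr9:115381898-115381919 and chr3:115979905-115979924 in the order printed. No member's precursor held any of the 5 sequences whole, reading the precursor's own strand. The seed letters of miR-466k occurred in 50 of the 119 member precursors, against 7.68% of all other miRNA precursors. Those of miR-466j occurred in 62 members against 2.11%, and those of miR-466q in 30 members against 1.34%. The seed of miR-669n occurred in 10 members, against 2.26% elsewhere, and that of miR-467h in 1 member, Mir467e, against 0.624%. Among the sequences not printed, the seed letters of miR-467g occurred in 78 members against 3.12% elsewhere. Those of miR-466i-3p occurred in 60 members against 5.76%, and those of miR-467f in 27 against 4.13%. Few matches of miR-467h therefore do not stand for the Mir467 genes outside Sfmbt2. Longer runs were shared as well. A run of 22 of the 23 bases of miR-466k occurred in 9 members, Mir466b-3 among them, and a run of 18 of the 20 bases of miR-669n occurred in Mir669c. A match of letters is a description of the precursor and says nothing of which arm was read.

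The 5 genes printed above belong to a group of 10 genes named Mir297, Mir466, Mir467 or Mir669 outside Sfmbt2. None of the 10 was detected, where detection means at least 2 CPM in both pups, and CPM are counts per 1000000 own-strand miRNA counts of the library. Mir466q had 7 counts in pup 1 and 5 in pup 3, or 1.43 and 0.801 CPM (mean 1.11 ± 0.442, SD, n = 2). Mir297-1, Mir466f-4, Mir466i, Mir466j, Mir466k, Mir467f, Mir467g, Mir467h and Mir669n had 0 counts in both.

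The tissue and the depth were as follows. Own-strand miRNA counts were 4906127 in pup 1 and 6238680 in pup 3. With 0 counts a library allows up to 3 counts, or 0.611 CPM in pup 1 and 0.481 CPM in pup 3. Reads that matched several genomic places made up 37.9% and 39.4% of reads in the tables and were given to no gene. Of the Hox-linked miRNAs that mark hindbrain and spinal cord, Mir10a had 32189 and 24602 CPM in pups 1 and 3, Mir10b 19914 and 10051, and Mir196b 19.4 and 15.9. Of the neuronal miRNAs, Mir137 had 11363 and 11340 CPM and Mir128-1 had 3910 and 3264. Mir124a-1 had 14.9 and 4.01 CPM and Mir9-2 had 2.45 and 1.44, so Mir9-2 was not detected. Parts of both precursors also occurred in other miRNA precursors, and reads that matched several places were given to no gene. Low values here therefore do not show low expression of these miRNAs. Of the red blood cell miRNAs, Mir451a was lower in pup 3 (461 and 258 CPM), while Mir144 (16.1 and 27.7) and Mir486 (mean 21.3 ± 0.971, SD, n = 2) were higher. On CPM of library totals, the leukocyte and microglia miRNAs were all lower in pup 3. Their levels were 488 and 300.2 CPM for Mir150, 173 and 128 for Mir146, and 212 and 196 for Mir223. The direction of the small Mir223 difference depends on how the libraries are scaled.

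The counts given to single genes of the cluster came mainly from 3 Mir467 genes and 3 Mir669 genes. The cluster took 24491 counts in pup 1, a share of 0.499% of own-strand miRNA counts (exact Clopper-Pearson 95% interval 0.493 to 0.505%). In pup 3 it took 33466 counts, a share of 0.536% (0.531 to 0.542%), and the mean share was 0.518 ± 0.0263% (SD, n = 2). These intervals cover counting error only. Of the 107 members with an entry, 10 were detected, a share of 9.35%. The share of all 1973 genes was 20.6%. Among genes with a Mir symbol it was 38.3%, against 10 of 59 in the cluster (16.9%). Among 399 other miRNA genes with a Mir symbol in introns of protein-coding genes on the same strand, 152 were detected (38.1%). The median of the cluster's detected members was 239 CPM, against 178 CPM over all detected genes and 103 CPM over the detected intronic genes. Detected members were therefore a smaller share of the cluster than of all genes, of genes with a Mir symbol and of the intronic genes. Their median level was not lower than in those lists. Of the 10 genes of the same families outside Sfmbt2, 0 were detected.

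Most of the cluster's counts came from Mir467d, Mir467e and Mir467c. Mir467d had 9023 counts in pup 1 and 12938 in pup 3, or 1839 and 2074 CPM (mean 1956 ± 166, SD, n = 2), and ranked 82 among all 1973 genes. Mir467e had 1436 and 1641 CPM (1539 ± 145, SD, n = 2) and Mir467c 724 and 871 CPM (798 ± 104, SD, n = 2). All 3 were higher in pup 3 than in pup 1. Together they took 80.1% of the cluster's counts in pup 1 and 85.5% in pup 3. Their order was the same in both pups, and their ranges did not overlap. Within a pup, where library size plays no part, Mir467d had 1.28 times the counts of Mir467e in pup 1 (counting interval 1.24 to 1.32) and 1.26 times in pup 3 (1.23 to 1.30). Mir467e had 1.98 times the counts of Mir467c in pup 1 and 1.88 times in pup 3, with intervals of 1.90 to 2.07 and 1.82 to 1.95 that overlap. For these 2 ratios the counting intervals of the pups overlapped.

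Mir669 was the second family, with 19.3% of the cluster's counts in pup 1 and 14.0% in pup 3. Mir669o had 390 and 285 CPM in pups 1 and 3 (mean 337 ± 74.3, SD, n = 2). Mir669l had 308 and 290 CPM (299 ± 12.6, SD, n = 2), within the range of Mir669o. Mir669c had 220 and 139 CPM (180 ± 57.2, SD, n = 2), below both in each pup. Mir669e followed at 34.4 and 30.9 CPM (32.7 ± 2.48, SD, n = 2), and Mir669h had the lowest mean of the detected members, at 10.4 and 3.37 CPM (6.88 ± 4.97, SD, n = 2). Proportions within this family differed between the pups. Mir669o had 1.27 times the counts of Mir669l in pup 1 (counting interval 1.18 to 1.36) and 0.982 times in pup 3 (0.920 to 1.05). Mir669c had 0.716 times the counts of Mir669l in pup 1 (0.661 to 0.774) and 0.481 times in pup 3 (0.443 to 0.521). With 1 library a pup, preparation and animal cannot be told apart.

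Mir297 and Mir466 had 1 detected gene each. Mir297a-2 had 72 counts in pup 1 and 79 in pup 3, or 14.7 and 12.7 CPM (13.7 ± 1.42, SD, n = 2). Mir466n had 31 and 67 counts, or 6.32 and 10.7 CPM (8.53 ± 3.13, SD, n = 2), and it was below Mir669h in pup 1 and above it in pup 3. Mir297 took 0.318% and 0.236% of the cluster's counts in pups 1 and 3, and Mir466 took 0.188% and 0.275%. Levels here are read counts per gene, with no correction for length, and the mature arms of a precursor are not separated. Ligation and amplification capture small RNAs unequally, so the order of genes is an order of reads.

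**Figure D1:**
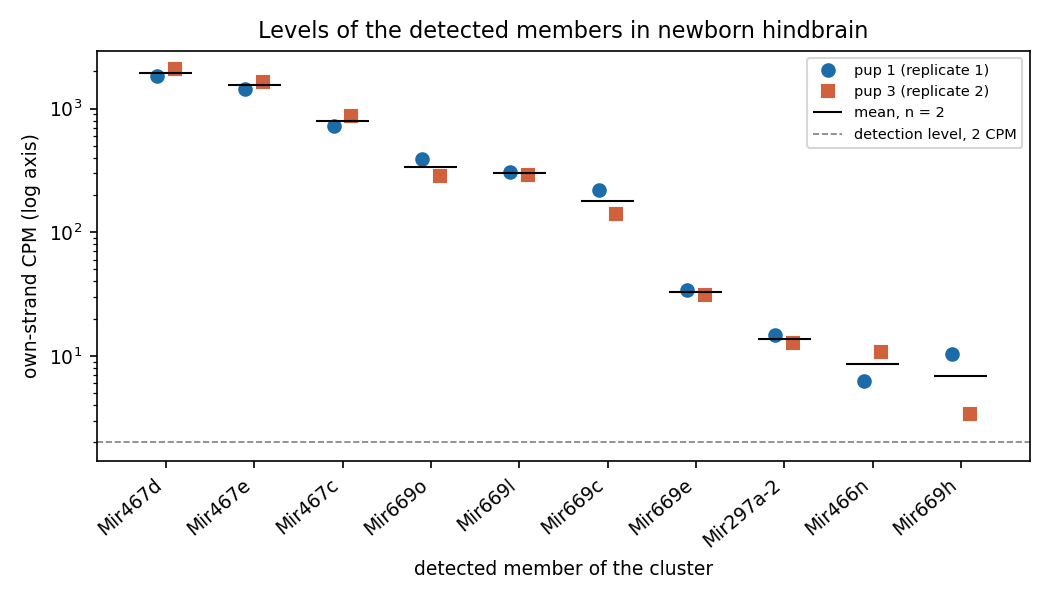
Own-strand CPM on a log axis for the 10 detected members in pup 1 (circles) and pup 3 (squares), with the mean of n = 2 as a bar and the detection level of 2 CPM dashed. The 3 Mir467 genes sit at 724 CPM and above in both pups, while Mir669h has 10.4 CPM in pup 1 and 3.37 in pup 3.

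A further 20 members were counted below the detection level. Mir466b-3 came closest, with 5 counts in pup 1 and 11 in pup 3 (1.02 and 1.76 CPM). Gm25263 had 2 and 8 counts, Mir467b 8 and 1, Mir466h 4 and 5, Mir669f 6 and 1, Mir297b 6 and 0, Gm22239 2 and 4, and Mir466l 1 and 5. The remaining 12 had at most 2 counts in either pup. Of these, Mir466g, Mir466o, Mir669a-3, Gm22072 and Gm22925 were counted in both pups. Gm22677, Gm26491 and Mir466 were counted in pup 3 only, and Mir669d-2, Gm26398, Mir466d and Mir669m-2 in pup 1 only.

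The other 77 members with an entry had 0 own-strand counts in both pups. In Mir467 they were Mir467a-1 to Mir467a-10, so every copy named Mir467a was at 0 beside the 3 abundant genes of its family. In Mir466 they were Mir466m, Mir466f-1, Mir466f-2, Mir466f-3, Mir466b-2, Mir466b-4, Mir466b-5, Mir466b-6, Mir466b-7, Mir466b-8, Mir466c-2 and Mir466p. In Mir669 they were Mir669a-1, Mir669a-2, Mir669b, Mir669d, Mir669g, Mir669i, Mir669j, Mir669k, Mir669m-1, Mir669p-1 and Mir669p-2, and in Mir297 they were Mir297c, Mir297a-3 and Mir297a-4. Of 48 members with a Gm name, a provisional symbol, 41 were at 0 and none was detected. By shared 20-base stretches, 42 of the 48 were closest to a Mir669 member. The 41 were Gm23578, Gm26073, Gm25701, Gm24315, Gm25451, Gm24761, Gm23651, Gm23108, Gm25680, Gm22775, Gm26060, Gm26431, Gm26229, Gm24167, Gm24640, Gm23288, Gm25285, Gm24673, Gm22635, Gm23569, Gm26426, Gm24488, Gm25158, Gm24028, Gm22626, Gm22166, Gm26156, Gm23571, Gm25316, Gm25022, Gm25943, Gm23988, Gm25673, Gm25753, Gm22051, Gm22678, Gm22091, Gm24342, Gm23542, Gm26092 and Gm24806. The 12 members with no entry in the tables were Mir466b-1, Mir466e, Mir466c-1 and Mir669a-4 to Mir669a-12, and they are not analysed here. No member had an opposite-strand count in either pup, while over all genes 3.02% and 3.39% of counts lay on the opposite strand.

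All 119 members lay in intron 10 of a 23-exon Sfmbt2 transcript, and none overlapped an exon. In GRCm38 (mm10) Sfmbt2 spans chr2:10370510-10595253 on the plus strand and the intron spans chr2:10461473-10523944. The members spanned 52.993 kb, with gaps between neighbours of 70 to 2575 bases and a median gap of 206 bases. Mir467c (chr2:10473931-10474027) stood upstream of the Mir467a copies, and Mir467e (chr2:10505721-10505807) and Mir467d (chr2:10507630-10507714) stood downstream of them. Mir669e, Mir669l and Mir297a-2 were upstream too, and Mir669c, Mir466n, Mir669o and Mir669h downstream.

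The middle of the cluster, bounded here by gene name, was regularly spaced and gave almost no counts. From the first to the last Mir467a copy, an interval chosen after the values were seen, 12 Mir467-type units followed each other at steps of 2413 to 2470 bases (median 2451). This array of 27.01 kb held 65 members, 55 of them with an entry. None of the 55 was detected, and Mir467b alone was counted, with 8 counts in pup 1 and 1 in pup 3. Upstream of the array, 4 of 20 members with an entry were detected, with a summed level of 1144 ± 86.2 CPM (SD, n = 2). Downstream, 6 of 32 were detected, with a summed level of 4033 ± 178 CPM, or 78.3% and 77.5% of the cluster's counts in pups 1 and 3. With these bounds, set by the Mir467a names and not by spacing, the detected members lay on both sides of the array. The regular spacing itself ran on to Mir467c and Mir467e, at steps within the same range. Mir467c started at 10473931, before Mir467a-1 at 10476346. Mir467e started at 10505721, after Mir467a-10 at 10503273. Most array members with an entry had no 20-base stretch that is absent from other miRNA precursors. Reads at several places were given to no gene, so the lack of counts there does not show a lack of expression.

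**Figure D2:**
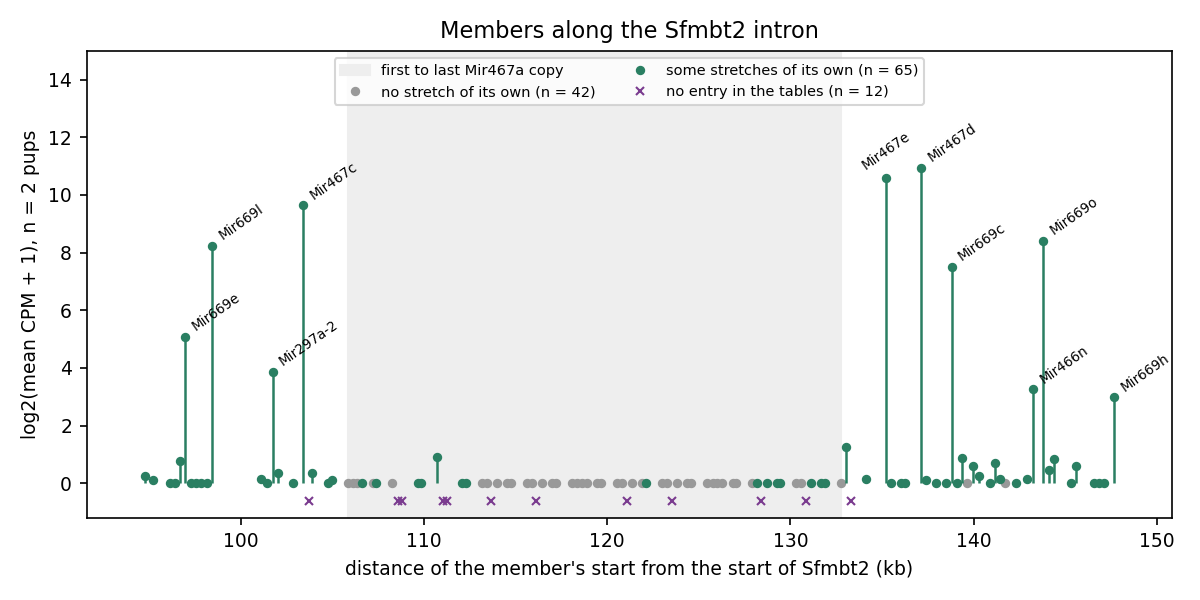
Level of each member, as log2 of mean CPM plus 1 (n = 2 pups), against the distance of its start from the start of Sfmbt2 in kb, with the array of Mir467a copies shaded. All 10 detected members stand outside the shaded array, where the 42 members with no stretch of their own (grey) are concentrated.

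Every member with an entry whose precursor had no 20-base stretch of its own among miRNA precursors was without counts, as the counting rule largely sets. A read of 20 bases or more inside such a precursor also matches another one, and reads at several places were given to no gene. These zeros therefore say nothing of expression. For each precursor, the share of its 20-base stretches found in no other miRNA precursor was computed, over both strands. Of 119 members, 116 shared at least 1 such stretch with another member and 33 shared 1 with a miRNA precursor outside Sfmbt2. No stretch of their own was left in 54 members. Of these, 12 had no entry and the other 42 had 0 counts in both pups. An identical precursor elsewhere was held by 47 members, among them Mir669a-4 to Mir669a-12, which were identical to one another. Another such group was Mir467a-2, Mir467a-4, Mir467a-5, Mir467a-7, Mir467a-8, Mir467a-9 and Gm25022.

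Detected members kept 32.4 to 95.0% of their stretches to themselves, with a median of 54.7%. The 20 members counted below the detection level ranged from 20.4 to 100% (median 42.0%). The 77 at 0 ranged from 0 to 94.8% (median 0%). Some members with most of their sequence to themselves had 0 counts, so the 2 measures did not match gene by gene. Of 12 members with over 75% and under 100% of own stretches, 2 were detected and 6 counted. Both members with all stretches their own, Gm22239 and Mir466g, were counted but not detected. Of 108 other miRNA genes with a Mir symbol between 75% and 100%, 74 were detected, and of 823 with all stretches their own, 317. At above 50 to 75%, 6 of 11 members were detected, against 2 of 22 other genes with a Mir symbol. At above 25 to 50%, 2 of 29 members were detected, against 0 of 16. The cluster was thus below such genes in the upper classes and above them in the middle ones, with few members per class. Of 17 such genes with no stretch of their own, 1 was counted (1 and 2 counts) and 0 were detected. Reads at several places were counted for no gene, so expression of the copies cannot be told apart from its absence in these tables. The part of this counting rule in the zeros of members with stretches of their own was not tested. Uniqueness against the whole genome is not analysed here.

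**Figure D3:**
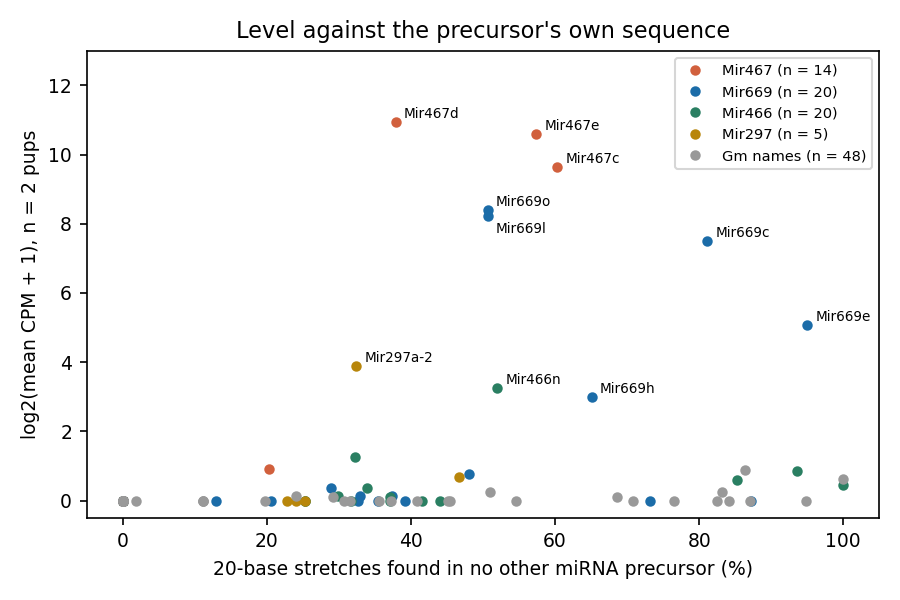
Level of the 107 members with an entry, as log2 of mean CPM plus 1 (n = 2 pups), against the percentage of their 20-base stretches found in no other miRNA precursor, coloured by family. The 10 detected members lie between 32.4 and 95.0%, and the 42 members at 0% all lie at a level of 0. Reads of 20 bases or more inside those 42 also match another precursor, and reads at several places were given to no gene.

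Close relatives of the abundant members differed widely in counts. Mir467d shared 60 of its 85 bases as 1 run with 10 members, Mir467a-2 among them, and Mir467a-2 had 0 counts. Mir467d shared a run of 34 bases with each of Mir467e and Mir467c, while Mir467e and Mir467c shared 48. Mir669l shared 57 bases with Mir669d, and Mir297a-2 shared 58 bases with Mir297a-4. Mir669d and Mir297a-4 were both at 0 in both pups. Reads inside a shared run could not be given to either partner, so these counts are uncertain. The same holds for other detected members, since Mir466n shared 47 bases with Mir466d, Mir669h 43 with Gm22677, Mir669o 38 with 12 members and Mir669c 36 with Mir669a-3. The order and ratios of the Mir467 genes are those of the reads that could be given to 1 gene.

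The precursors shared base composition as well as sequence. Their GC content had a median of 37.3% (29.0 to 43.4%), against a median of 51.7% over other miRNA genes. The letters TGTGTGTG, searched on both strands, occurred in 88 of 119 members (73.9%), against 8.11% of 2083 other miRNA precursors. They occurred in 7 of the 10 detected members, in 15 of the 20 counted below detection and in 54 of the 77 at 0 (70.1%). The repeat was thus common in detected and undetected members alike.

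The pups were compared gene by gene on TMM-scaled counts, with 1 CPM added and a call at 2-fold or more. With 1 library a side there is no replicate check and no p-value. Of 12 members with at least 10 counts in sum, 1 differed by 2-fold or more, Mir669h, which was lower in pup 3. Over all 508 genes tested the share called was 7.28%, and the share called lower in pup 3 was 6.3%. Mir669h had 51 counts in pup 1 and 21 in pup 3, a log2 ratio of -1.49 without an added count (counting interval -2.30 to -0.73) and a log2 difference of -1.27 with it. Its interval reached inside 2-fold, and the call was lost with 5 CPM added or with a minimum of 100 counts, which left Mir669h out. Of the 12 members, 7 were higher in pup 3 by any amount, against 48% of all genes tested.

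The 3 abundant Mir467 genes had ratios above 0 and Mir669o and Mir669c ratios below 0. The log2 ratio of pup 3 over pup 1 was 0.31 for Mir467d (counting interval 0.27 to 0.35), 0.33 for Mir467e (0.29 to 0.37) and 0.40 for Mir467c (0.34 to 0.47). For Mir669o it was -0.31 (-0.41 to -0.22) and for Mir669c -0.52 (-0.65 to -0.39). These 5 kept their sign under all 3 scalings, namely TMM, library totals and DESeq2 size factors, as did Mir466n and Mir669h. Mir466n had a log2 ratio of 0.90 (0.27 to 1.57). Mir669l at 0.05 changed sign on library totals, and Mir669e at -0.02 and Mir297a-2 at -0.07 changed sign under DESeq2 size factors. Library totals moved the median log2 difference of all 508 genes to -0.15, from -0.02 under TMM and 0.06 under DESeq2. On CPM of library totals, not on TMM, the 3 hindbrain markers summed to 52123 and 34670 in pups 1 and 3. The 4 neuronal markers summed to 15290 and 14609, nearly all of it from Mir137 and Mir128-1. The 3 red blood cell markers summed to 498 and 308, and the 3 leukocyte markers to 873 and 625. These sums are given on library totals only. With the TMM factors, 1.05 for pup 1 and 0.953 for pup 3, the small neuronal difference would change direction. Of the red blood cell markers, Mir451a alone was lower in pup 3. The part of these cell types in the differences was not tested.

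**Figure D4:**
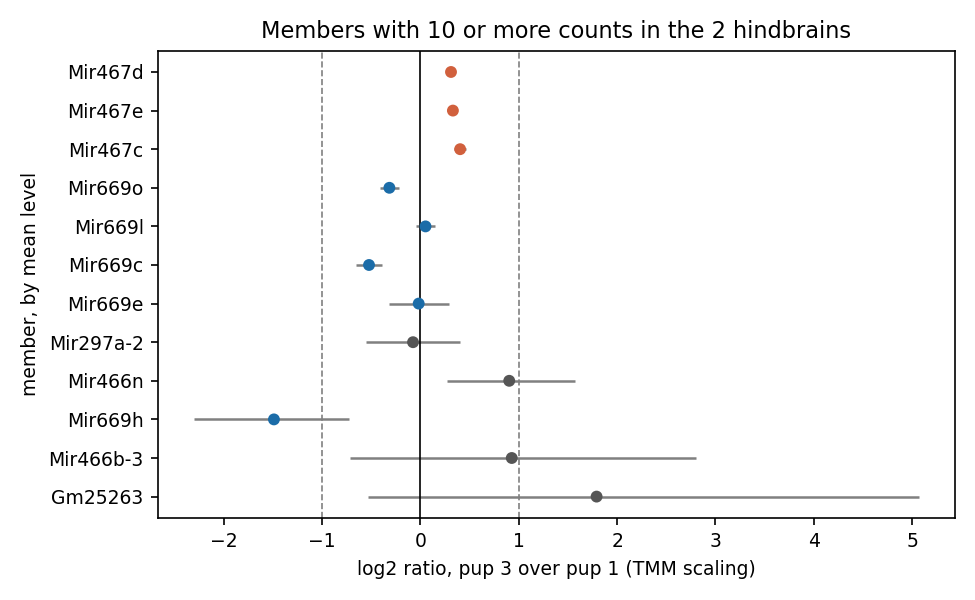
Log2 ratio of pup 3 over pup 1 on TMM scaling for the 12 members with at least 10 counts in sum, with lines for the 95% counting interval and dashed lines at 2-fold; Mir467 is orange, Mir669 blue and other members grey. The 3 Mir467 genes lie between 0.31 and 0.40, and Mir669h at -1.49 lies beyond the 2-fold line.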

How the data were processed

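Own-strand read counts per miRNA gene were used as the authors deposited them, 1 table of raw counts per library. Text files that the authors deposited with them name mm10 as assembly and M4 as annotation. The aligner was not given in the sources used here, nor was the counter. Rows that name no gene (unmapped reads, 17.7% and 13.9% in pups 1 and 3, and reads at several places) stayed out of totals. IDs were matched without version to GENCODE M21, and 1894 of 1973 matched. CPM are per 1000000 own-strand miRNA counts, with 4906127 and 6238680 counts behind them. TMM factors came from edgeR 4.0.16 (ratio of effective library sizes 1.16) and alternative size factors from DESeq2 1.42.0. Intervals are exact Clopper-Pearson at 95% and cover counting error only, since reads carry no molecular identifiers. Calling and sharing steps were tested on simulated data. Shared sequence was counted with GENCODE transcripts, in stretches of 20 bases. Of the members, 0 matched the RefSeq table of mature miRNAs by symbol, and 8 of the 10 family genes outside Sfmbt2 matched. Copies were therefore counted on precursors, not on mature arms, and printed sequences are of genes outside. Every member with a count is named, and members at 0 are listed. Members, lists and thresholds were chosen with earlier results of these data known. Alternatives covered the unit, detection level, scaling, pseudocount, count minimum, stretch length and each replicate.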

Additional observations from a re-analysis of the deposited data

How the results depend on the processing

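The cluster's share was 0.218% when divided by all reads in the tables, and 0.499 to 0.536% with either pup left out. Detected members numbered 8 to 11 over the other detection levels tried, and 30 when 1 count in either pup sufficed. At 1 CPM Mir466b-3 joined, at 10 CPM Mir466n and Mir669h dropped out, and with CPM of all reads Mir669h dropped out. Members differing 2-fold numbered 3 with a minimum of 1 count (Mir669h, Mir467b and Mir297b), 0 with a minimum of 100 counts, 2 with 0.5 CPM added (Mir669h and Gm25263) and 0 with 5 CPM added. The single call of the report was also made on library totals and on DESeq2 size factors. Levels of 9 of the 10 detected members moved by more than 1 SD with CPM of all reads, to 0.41 to 0.42 of the reported value. With 2 pups, leaving out 1 of them stays within 1 SD by construction. Stretches of 16, 18 and 22 bases, lengths added after the data were seen, also left 54 members without a stretch of their own. Copies of whole mature arms, and the 2-fold count without a replicate, were not run. No paired analysis was possible because the labels give 1 group. Depth limits the 20 members below detection, whose values rest on 1 to 16 counts in sum.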
